A study of Mus musculus with 2 samples.

Results

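The genes described here are 9 components of transforming growth factor-beta (TGF-beta) signaling: the ligand *Tgfb1*, the anchoring gene *Nrros*, the receptors *Tgfbr1* and *Tgfbr2*, the signal transducers *Smad2*, *Smad3* and *Smad4*, the inhibitory Smad *Smad7* and the co-repressor *Ski*. They were chosen by symbol, and all 9 were found among the 32285 genes of the count tables. Each was followed in 3 classes of cells sorted from the mouse brain as CD45lowCD11b+. There was 1 droplet single-cell RNA sequencing (scRNA-seq) library from Disc1WT/WT mice and 1 from homozygous Disc1LI/LI mice. The latter carry a constitutively impaired *Disc1* locus (locus impairment, LI). Both groups were male littermates aged 23 weeks, with the brains of 6 mice pooled into each library, and both went through tissue dissociation in the transcription inhibitor actinomycin D. With 1 library per genotype no difference between them has a replicate check and no test was possible. Intervals below are 95% intervals that cover counting error only, so a difference between mice and a difference between library preparations cannot be told apart.

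TGF-beta is secreted in a latent complex, in which the mature ligand is caged by its own propeptide and tethered to an anchoring protein. NRROS is the anchoring protein used by microglia, and integrins release the ligand from such complexes. The freed dimer brings together a type II receptor (TGFBR2) and a type I receptor (TGFBR1, also called ALK5), which phosphorylates SMAD2 and SMAD3. These then enter the nucleus with SMAD4, where SKI and SKIL hold the complex in check, and SMAD7 is induced by the pathway and blocks the receptor. In the adult brain this pathway is known to keep up the homeostatic gene program of microglia.

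On the mouse genome build GRCm38 (mm10, GENCODE vM21 annotation) the 9 protein-coding genes lie on 5 chromosomes, and none of them overlaps another counted gene on either strand. The ligand gene *Tgfb1* is at chr7:25687002-25705077 and *Nrros* at chr16:32142785-32165594. *Tgfbr1* spans chr4:47353222-47414931 and *Tgfbr2* chr9:116084293-116175360. *Smad3*, the longest of the 9 at 111228 bases, spans chr9:63646767-63757994, and *Ski* spans chr4:155154075-155222592. *Smad2* (chr18:76241580-76310963), *Smad4* (chr18:73639009-73703780) and *Smad7* (chr18:75367529-75395935) share chromosome 18.

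The tables held 7038 barcodes with 33601957 unique molecular identifiers (UMIs, counted RNA molecules) in the Disc1WT/WT library and 7834 barcodes with 47731571 UMIs in the Disc1LI/LI library, and 12 barcodes occurred in both. After 6 and 17 barcodes with few genes or much mitochondrial RNA were left out, cells were classed by their own RNA. Microglia were cells with at least 0.5% of UMIs from *P2ry12*, *Gpr34*, *Tmem119*, *Siglech*, *Fcrls* and *Olfml3* and under 1% from *S100a8* and *S100a9*, neutrophils were cells with at least 3% from *S100a8* and *S100a9*, and the remaining cells were the other cells. The Disc1WT/WT library held 6180 microglia, 116 neutrophils and 736 other cells, and the Disc1LI/LI library held 1950, 3622 and 2245. Microglia therefore made up 87.9% of the kept Disc1WT/WT cells and 24.9% of the kept Disc1LI/LI cells, although the labels call both samples microglia. The class is a range of a score and not a sharp type: 262 Disc1WT/WT and 181 Disc1LI/LI cells lay between 0.25% and the cut, and 1852 and 768 between the cut and 1%. Levels are UMIs summed over the cells of a class per 1000000 UMIs of that class (CPM) from 3′ tags, and each gene is compared with itself between classes and libraries, not with the other genes. *Disc1* itself was at 19.1 CPM over the whole library (95% interval 17.7 to 20.6) in the Disc1WT/WT library and at 0.461 (0.289 to 0.698) in the Disc1LI/LI library, as the labels say.

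The receptors were higher in microglia than in both other classes, whereas *Nrros* was higher than in neutrophils but not than in the other cells. The sequence just upstream of these 3 genes is therefore shown. Promoters of 6 of the 9 genes were found in the RefSeq table (GRCm38.p6). The 250 bases before the annotated start are given 5′ to 3′ on the strand of the gene, at chr4:47352972-47353221 (plus strand, the first of the starts listed for *Tgfbr1*), chr9:116175364-116175613 (minus strand, *Tgfbr2*) and chr16:32165595-32165844 (minus strand, *Nrros*). Capitals mark exact matches, on either strand, to GAGGAA (the core of the box bound by the myeloid factor PU.1), CAGAC (a Smad-binding element) and GGGCGG (the GC box bound by Sp1).
Tgfbr1: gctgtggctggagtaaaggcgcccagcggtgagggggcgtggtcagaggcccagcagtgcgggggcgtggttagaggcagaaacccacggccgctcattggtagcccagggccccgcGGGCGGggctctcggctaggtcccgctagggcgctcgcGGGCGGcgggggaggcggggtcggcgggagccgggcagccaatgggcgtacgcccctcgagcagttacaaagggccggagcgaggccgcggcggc
Tgfbr2: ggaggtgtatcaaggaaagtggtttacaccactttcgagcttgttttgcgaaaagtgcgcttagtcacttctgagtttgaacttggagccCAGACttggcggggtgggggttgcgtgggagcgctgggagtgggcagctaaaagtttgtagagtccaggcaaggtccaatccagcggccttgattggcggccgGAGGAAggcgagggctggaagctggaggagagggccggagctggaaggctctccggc
Nrros: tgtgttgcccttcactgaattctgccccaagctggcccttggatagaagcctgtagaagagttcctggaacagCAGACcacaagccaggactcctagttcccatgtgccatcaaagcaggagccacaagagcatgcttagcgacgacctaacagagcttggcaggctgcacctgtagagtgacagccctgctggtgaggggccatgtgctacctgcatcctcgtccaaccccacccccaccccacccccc
The *Tgfbr1* window held 2 GC boxes, 133 and 95 bases before the start counted to the first base of each match, and was 74.8% G or C. *Tgfbr2* held 1 match to GAGGAA, 57 bases before the start, and 1 to CAGAC, 160 bases before it, and *Nrros* held 1 match to CAGAC, 177 bases before it. Both windows were 58.4% G or C, against a median of 52.4% over the 32851 promoters of the table. Of all windows of this length in the table, 23.3% held GAGGAA, 42.2% CAGAC and 32.7% GGGCGG, so a single match is common, and a window without one says only that these letters were not in it. No matches shown overlap each other.

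Both receptor genes were higher in microglia than in the neutrophils and the other cells of the same library. *Tgfbr1*, the type I receptor, was at 1430.5 CPM in Disc1WT/WT microglia (42039 UMIs), 291 (95% interval 251 to 335) in Disc1WT/WT neutrophils and 377 (357 to 397) in the other cells. In the Disc1LI/LI library it was at 1020.4 in microglia (8338 UMIs), 48.7 (45.8 to 51.8) in neutrophils and 49.8 (46.6 to 53.2) in the other cells. The microglial intervals lay above those of the other classes in each library, and the log2 ratio of microglia over neutrophils was 2.30 (2.10 to 2.51) and 4.39 (4.29 to 4.48). Almost all microglia carried it: 97.6% of Disc1WT/WT and 93.8% of Disc1LI/LI microglia had at least 1 *Tgfbr1* UMI, at median depths of 4271 and 3787.5 UMIs per cell. With each cell thinned to 1000 UMIs these shares were 73.5% and 62.9%, over the 6076 and 1933 microglia deep enough to thin.

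*Tgfbr2*, the type II receptor that binds the ligand first, followed the same order. It was at 275 CPM in Disc1WT/WT microglia, 61.5 (44.1 to 83.4) in neutrophils and 135 (123 to 147) in the other cells, and at 169 (160 to 178), 17.6 (15.8 to 19.4) and 21.7 (19.6 to 24.0) in the Disc1LI/LI library. Both receptors were detected together in 65.5% of Disc1WT/WT and 44.3% of Disc1LI/LI microglia, and in 16.8% and 10.8% after thinning to 1000 UMIs. The ligand gene *Tgfb1* was found beside both receptors in 44.3% and 25.2% of microglia without thinning. After thinning to 1000 UMIs this was 3.46% (3.01 to 3.95) and 2.69% (2.02 to 3.51), and the intervals overlapped.

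The ligand and its anchor parted ways. *Tgfb1* was at 247 CPM in Disc1WT/WT microglia, 77.9 (58.2 to 102) in neutrophils and 139 (127 to 152) in the other cells, and at 209.9, 35.8 (33.3 to 38.4) and 121 (115 to 126) in the Disc1LI/LI library. It was highest in microglia in both libraries. *Nrros*, whose product holds latent TGF-beta at the surface of microglia, was at 98.0 (94.4 to 102) in Disc1WT/WT microglia, 24.0 (13.7 to 38.9) in neutrophils and 112 (101 to 124) in the other cells. In the Disc1LI/LI library it was at 121 (114 to 129), 34.5 (32.1 to 37.1) and 163 (157 to 169). In the Disc1LI/LI library its interval in the other cells lay above that in microglia, and in the Disc1WT/WT library the ends of the 2 intervals overlapped. The log2 ratio of microglia over the other cells was -0.19 (-0.34 to -0.04) and -0.43 (-0.54 to -0.33), which made *Nrros* the one gene of the 9 below 0 in that comparison by CPM. At a microglia cut of 1% its Disc1WT/WT value was 0.055, and with sums scaled by edgeR's trimmed mean of M-values (TMM) *Smad4* joined it below 0 in the Disc1LI/LI library, at -0.27.

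**Figure D1:**
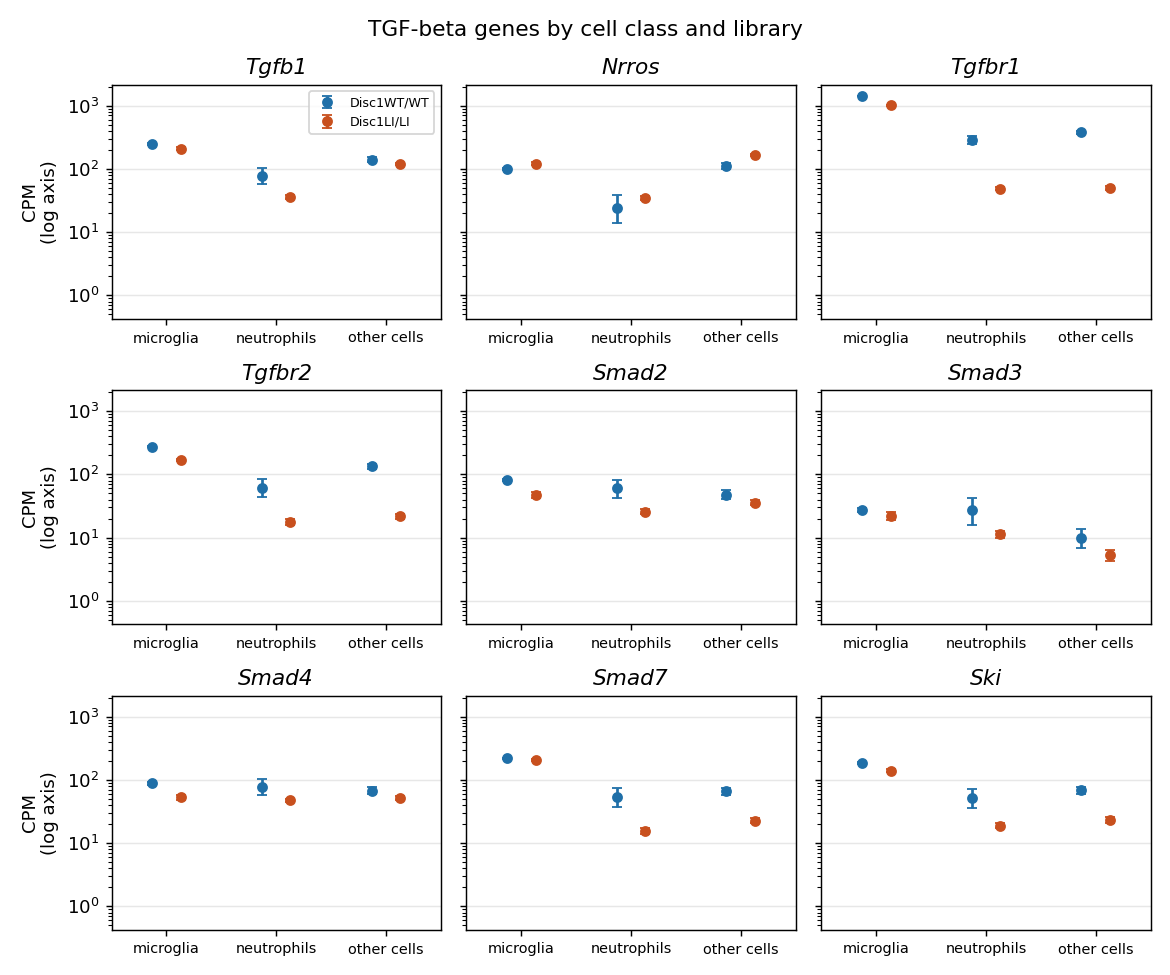
CPM (log axis) of each of the 9 genes in microglia, neutrophils and other cells of the Disc1WT/WT library (blue) and the Disc1LI/LI library (orange). Points are class sums and bars are exact 95% Poisson intervals. *Tgfbr1* stood highest in microglia at 1430.5 and 1020.4, *Nrros* was higher in the other cells than in microglia, and *Smad4* lay between 47.5 and 87.8 in all 6 sums.

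The receptor-regulated Smads and their partner differed less between microglia and neutrophils than the receptors did, with log2 ratios of 0.02 to 0.99 against 2.16 to 4.39. Against the other cells of the Disc1WT/WT library this did not hold for *Smad3*, at 1.47 beside 1.03 for *Tgfbr2*. *Smad2* was at 81.4 (78.2 to 84.7) CPM in Disc1WT/WT microglia, 60.0 (42.8 to 81.6) in neutrophils and 48.1 (41.1 to 55.8) in the other cells, and at 47.6, 25.8 and 35.9 in the Disc1LI/LI library. *Smad3* was at 27.3 in Disc1WT/WT microglia, 27.0 (16.0 to 42.6) in neutrophils and 9.89 (6.89 to 13.8) in the other cells, and at 22.4, 11.3 and 5.24 in the Disc1LI/LI library. *Smad4*, which both Smads need in the nucleus, was at 87.8, 77.9 (58.2 to 102) and 67.3 (59.0 to 76.4) in the Disc1WT/WT classes and at 53.5, 47.5 and 51.4 in the Disc1LI/LI classes. The *Smad2*, *Smad3* and *Smad4* intervals of microglia and neutrophils overlapped in the Disc1WT/WT library. In the Disc1LI/LI library, those of *Smad2* and *Smad3* did not overlap and that of *Smad4* reached from 48.6 to 58.7 in microglia against 44.7 to 50.5 in neutrophils.

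The genes of the brakes on the pathway went with the receptors. *Smad7* was at 220.0 CPM in Disc1WT/WT microglia, 54.0 (37.8 to 74.7) in neutrophils and 66.1 (57.9 to 75.2) in the other cells, and at 208, 15.8 (14.2 to 17.6) and 22.7 (20.5 to 25.0) in the Disc1LI/LI library. *Ski* was at 186, 52.5 (36.5 to 73.0) and 69.3 (60.9 to 78.5) in the Disc1WT/WT classes and at 139.9, 19.0 (17.2 to 20.9) and 23.4 (21.2 to 25.7) in the Disc1LI/LI classes. For both genes the microglial interval lay above the others in each library. Without thinning, a UMI of *Smad7* was present in 54.0% of Disc1WT/WT and 48.6% of Disc1LI/LI microglia, and of *Ski* in 51.5% and 41.1%. After thinning to equal depth, the *Smad7* shares were 18.9% (17.9 to 19.9) and 19.1% (17.4 to 20.9), and the intervals overlapped. The *Ski* shares were then 16.4% (15.5 to 17.3) and 12.5% (11.1 to 14.1), and the intervals did not overlap.

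Counted over the 9 genes, 6 were at least 2-fold higher (log2 ratio of 1) in microglia than in neutrophils in the Disc1WT/WT library, namely *Tgfb1*, *Nrros*, *Tgfbr1*, *Tgfbr2*, *Smad7* and *Ski*, and none was lower to that degree. Of the 12950 genes with at least 10 UMIs over both sums, 41.6% passed the same fold upward and 10.0% downward. These 12950 include 1970 genes at the limit of a count of 0, which could not be called in either direction. The same 6 genes passed it in the Disc1LI/LI library, beside 58.5% of 12703 genes upward and 13.9% downward. The median log2 ratio of the 9 genes was 1.83 and 2.55, against 0.98 and 1.33 over all genes. *S100a8* and *S100a9* fill a large part of the neutrophil total, which lowers the CPM of every other gene there. TMM scaling moved every log2 ratio by -0.92 and -1.31. On that scale 4 of the 9 genes were past the fold upward and none downward in the Disc1WT/WT library. In the Disc1LI/LI library 5 were past it upward and 1 downward, *Smad4*. The share of all genes past the fold was not computed with TMM scaling. *Smad2*, *Smad3* and *Smad4* were above 0 in both libraries by CPM and below 0 in both with TMM, while the other 6 genes stayed above 0.

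Against the other cells, 5 of the 9 genes were at least 2-fold higher in microglia in each library: *Tgfbr1*, *Tgfbr2*, *Smad3*, *Smad7* and *Ski*. In the Disc1WT/WT library 15.7% of 13633 genes passed that fold upward, and in the Disc1LI/LI library 28.7% of 13249, while 17.9% and 19.9% passed it downward and none of the 9 genes did. The log2 ratios of *Tgfbr1* were 1.93 (1.85 to 2.01) and 4.36 (4.26 to 4.46), those of *Tgfbr2* 1.03 (0.90 to 1.17) and 2.96 (2.80 to 3.13), and those of *Smad7* 1.73 (1.55 to 1.93) and 3.20 (3.04 to 3.36). With the microglia cut at 1% none of the 9 genes passed in the Disc1WT/WT library, a cut that moves 1852 cells with lower marker levels from microglia to the 736 other cells. The 5 genes stayed past the fold at that cut in the Disc1LI/LI library, by count. In the other cells the 6 genes of the class rule stood at 9.52% to 25.8% of their microglial level in the Disc1WT/WT library. In the Disc1LI/LI library they stood at 2.56% to 4.19%. The class rule itself caps these 6 genes in nearly all of the other cells. The other cells included the 262 and 181 cells just under the microglia cut. The part of microglial RNA in these ratios was not tested.

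The neutrophil values were read beside genes known as microglia genes, taken as a background of microglial RNA. Over 9 such genes (the 6 of the class rule with *Cx3cr1*, *C1qa* and *Csf1r*), the level in neutrophils was 15.2% to 21.2% of the microglial level in the Disc1WT/WT library and 2.83% to 4.96% in the Disc1LI/LI library. Microglia were chosen for high levels of the 6 rule genes, which by itself lowers these percentages for them. *Cx3cr1*, *C1qa* and *Csf1r*, outside the rule, stood at 20.3% to 21.2% in the Disc1WT/WT library and 3.72% to 4.96% in the Disc1LI/LI library. In these libraries 11 of 116 and 57 of 3622 neutrophils also passed the microglia cut, and no doublets were removed. *Tgfbr1* in neutrophils stood at 20.3% and 4.78% of its microglial level, inside the range of the microglia genes in each library. In the Disc1LI/LI library *Csf1r* alone set the top of that range, and the other 8 genes lay at 2.83% to 3.80%, below *Tgfbr1*. Without the neutrophils over the microglia cut *Tgfbr1* stood at 11.3% and 3.26%, within 6.69% to 12.6% and 1.63% to 3.44% for those genes, and in the Disc1LI/LI library again above all of them but *Csf1r*. Those cells were left out by the same 6 rule genes, so the range of these genes falls by construction. Whether neutrophils hold *Tgfbr1* RNA of their own cannot be told apart from that background here. That reading rests on *Csf1r* in the Disc1LI/LI library, and whether neutrophils hold *Csf1r* RNA of their own was not tested. *Tgfbr2*, at 22.3% and 10.4%, and *Smad7*, at 24.5% and 7.60%, stood just above the range in the Disc1WT/WT library and clearly above its end of 4.96% in the Disc1LI/LI library. *Ski* was at 28.2% and 13.6%, *Tgfb1* at 31.5% and 17.0%, and *Nrros* at 24.5% and 28.5%. *Smad2*, at 73.7% and 54.1%, *Smad3*, at 98.7% and 50.3%, and *Smad4*, at 88.7% and 88.9%, were far above it in both libraries. A UMI of *Tgfbr1* was found in 28.4% of Disc1WT/WT and 12.9% of Disc1LI/LI neutrophils, at median depths of 4844.5 and 4194 UMIs, and such a share is to be read with that background.

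**Figure D2:**
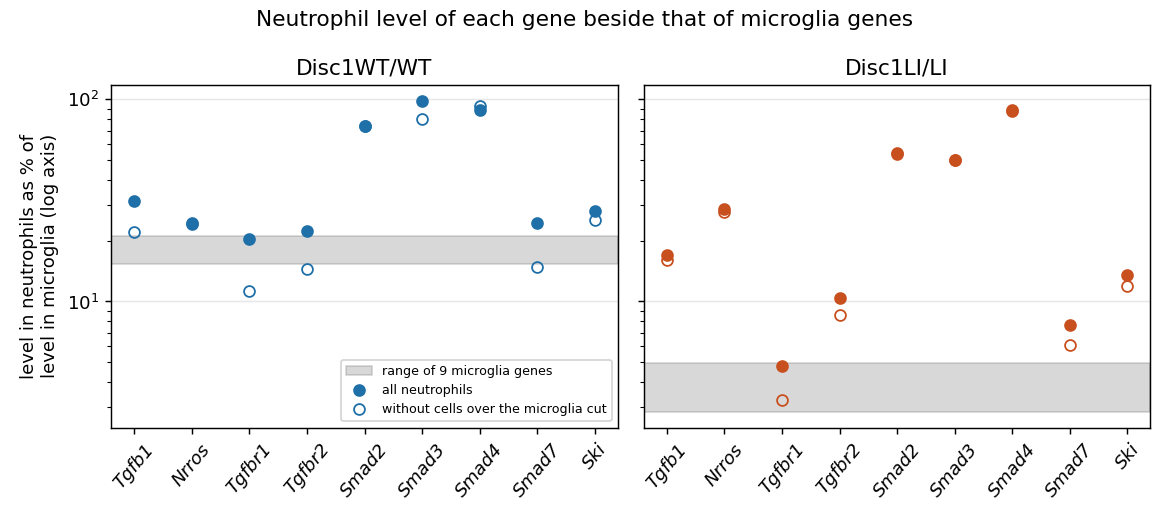
Level of each gene in neutrophils as a percentage of its level in microglia of the same library (log axis), for Disc1WT/WT (left) and Disc1LI/LI (right). Filled points are all neutrophils, open points are neutrophils without the 11 and 57 cells over the microglia cut, and the grey band is the range of 9 microglia genes in all neutrophils. *Tgfbr1* lies inside the band in both panels, near its upper end, and the *Smad2*, *Smad3* and *Smad4* points lie above it at 50.3% to 98.7%.

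Maturity of the neutrophils also went with some of these genes. In the Disc1LI/LI library 1825 neutrophils had at least 0.5% of UMIs from the granule genes *Ngp*, *Camp* and *Ltf*, which mark immature cells, and 1797 had less, at median depths of 6620 and 2657 UMIs. *Tgfbr2* was at 10.0 CPM (8.48 to 11.7) in the former and at 36.9 (32.2 to 42.0) in the latter, *Nrros* at 27.0 (24.5 to 29.7) and 53.7 (48.0 to 59.8), and *Smad4* at 39.1 (36.1 to 42.4) and 69.0 (62.5 to 75.9). None of these pairs of intervals overlapped. *Tgfb1* was at 36.0 (33.1 to 39.1) and 35.2 (30.7 to 40.3). Microglia genes were also higher in the cells with few granule genes, at 5.19% of the microglial level against 2.23%, and their part in the result was not tested.

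The other cells were split by 9 sets of 7 marker genes, a cell being placed where it had UMIs of at least 3 markers and more than of any other set. In the Disc1WT/WT library the largest named gate was border macrophages (202 cells) and in the Disc1LI/LI library classical monocytes (1331 cells against 43), so a value of all other cells compares different mixtures. *Nrros* was at 212 CPM (182 to 246) in Disc1WT/WT border macrophages and at 169.6 (118 to 236) in the 44 of the Disc1LI/LI library. In classical monocytes it was at 164 (128 to 208) and 190.4 (182 to 199), above the microglial level of the same library in each case. Dendritic cells had 67.6 (38.7 to 110) in the 17 of the Disc1WT/WT library and 176 (136 to 225) in the Disc1LI/LI library. Nonclassical monocytes had 93.7 (51.2 to 157) and 155 (105 to 220). Among these, only the Disc1LI/LI dendritic interval excluded the microglial level of its library. T and NK cells had 30.2 to 40.3 over both libraries. These lymphocyte values lay below those of microglia, although the Disc1WT/WT NK interval, 3.65 to 109, covered the microglial level.

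The receptors had another distribution among the same gates. *Tgfbr2* was at 201 (172 to 234) and 136 (90.2 to 196) in border macrophages and at 38.6 (22.1 to 62.7) and 15.8 (13.5 to 18.4) in classical monocytes, intervals that did not overlap in either library. *Tgfbr1* was at 358 (319 to 401) and 136 (90.2 to 196) in border macrophages and at 94.2 (67.0 to 129) and 29.1 (26.0 to 32.5) in classical monocytes. The 6 microglia rule genes stood at 19.2% and 11.99% of their microglial level in the border macrophage gates and at 5.42% and 1.71% in the classical monocyte gates. The class rule itself caps these 6 genes in nearly all cells of the gates. The part of microglial RNA in the receptor values of these gates was not tested. In the 44 border macrophages of the Disc1LI/LI library the intervals of *Tgfbr2* and *Nrros* both included the microglial levels of that library, 169 and 121 CPM. *Smad7* was at 104 (66.5 to 155) and 90.6 (63.5 to 125) in T cells and at 106 (42.4 to 217) and 107 (68.7 to 159) in NK cells, against 14.5 (5.32 to 31.5) and 12.8 (10.7 to 15.1) in classical monocytes. *Tgfb1* was at 176 (138 to 222) and 122 (116 to 129) in classical monocytes and at 139 (115 to 166) and 116 (74.5 to 173) in border macrophages, and those intervals overlapped in each library. The 102 progenitor cells of the Disc1LI/LI library, which express *Mpo* and *Elane*, had 140.1 (126 to 155) of *Tgfb1* beside 4.84 (2.58 to 8.28) of *Tgfbr2*. Cells that no marker set claimed numbered 352 in each library.

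**Figure D3:**
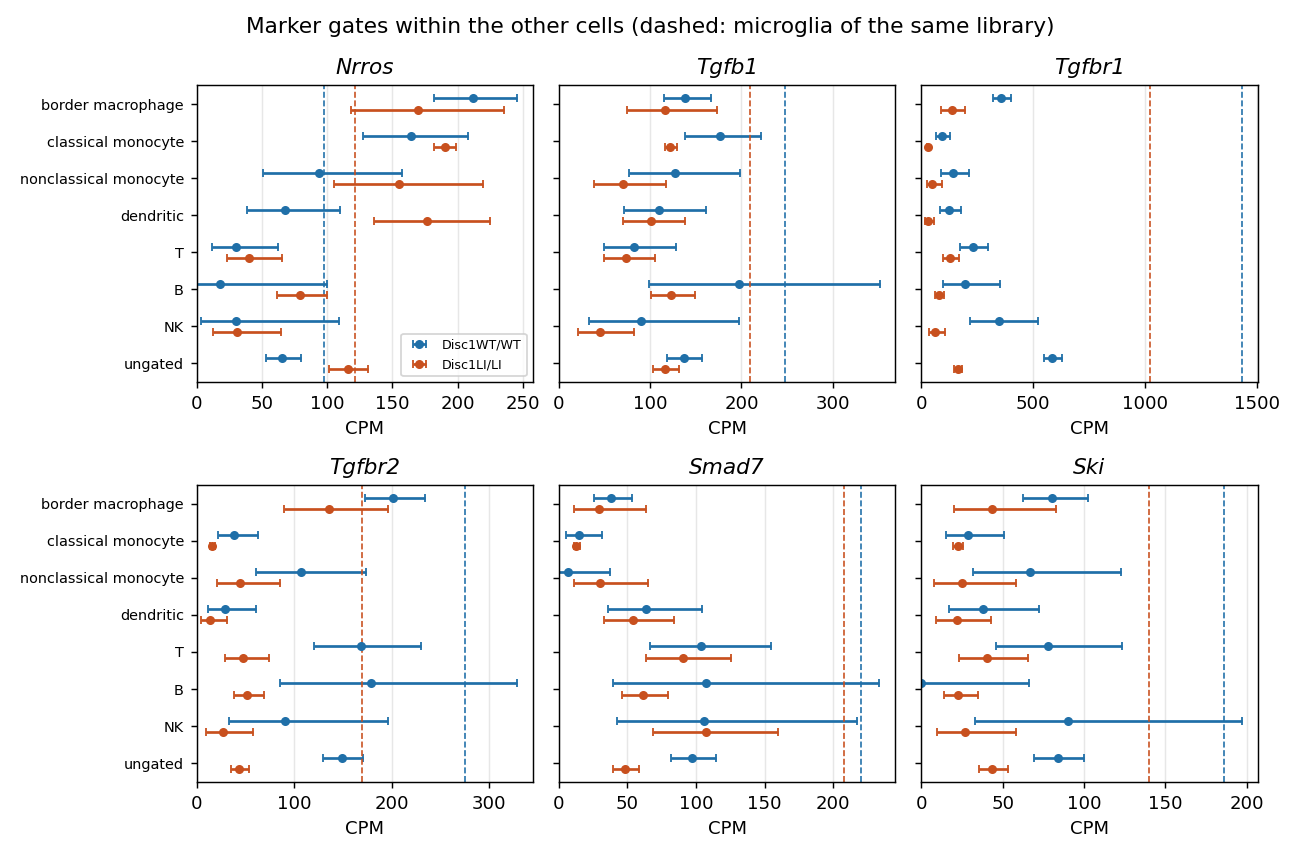
CPM of 6 of the genes in marker gates within the other cells of the Disc1WT/WT (blue) and Disc1LI/LI (orange) libraries, with exact 95% Poisson intervals. Dashed lines give the level in microglia of the same library. *Nrros* lies right of the microglial line in border macrophages and classical monocytes, whereas *Tgfbr1*, *Tgfbr2*, *Smad7* and *Ski* lie left of it in those gates.

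Between the genotypes, microglia of the Disc1LI/LI library had lower CPM of 8 of the 9 genes, and *Nrros* was the exception. The median log2 ratio over all genes was also below 0 in this comparison, at -0.18. Past a log2 ratio of 0.5, 3 genes were lower, namely *Smad2*, *Smad4* and *Tgfbr2*, and none was higher. Of 13137 genes, 25.5% passed that fold downward and 7.64% upward, so 3 of 9 is near the background. *Smad2* was at 47.6 against 81.4 CPM, a log2 ratio of -0.77 (-0.93 to -0.62). For *Smad4* the ratio was -0.72 (-0.87 to -0.57), and for *Tgfbr2* -0.70 (-0.78 to -0.62). All 3 stayed past the fold under each of the 10 alternatives run, with values from -0.82 to -0.53 over the 3 genes.

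*Tgfbr1* stood at -0.49 (-0.52 to -0.45), just inside the fold, *Ski* at -0.41 (-0.51 to -0.32), *Smad3* at -0.29 (-0.53 to -0.05), *Tgfb1* at -0.24 (-0.31 to -0.16) and *Smad7* at -0.08 (-0.16 to -0.0047). *Nrros* was at 121 against 98.0 CPM, a log2 ratio of 0.31 (0.20 to 0.41). TMM scaling moved every ratio in this comparison by 0.18. *Smad7* then turned to 0.094 and *Nrros* reached 0.48, while the other 7 genes stayed below 0.

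The size of the ratio went with gene length in this comparison. The trend was read over measured genes above a minimum CPM in Disc1WT/WT microglia, in 10 bins of length with 621 or 622 genes each. Their median was 0.20 in the shortest bin, up to 4.50 kb, and -0.50 and -0.48 in the 2 longest. Each gene was therefore set beside the median of the 200 measured genes nearest in length, which were taken without that minimum. On the log2 scale *Smad2* differed from that median by -0.37, *Smad4* by -0.34 and *Tgfbr2* by -0.25, the lowest of the 9. *Tgfb1* differed by -0.13, *Tgfbr1* by -0.09 and *Ski* by -0.03, while *Smad7* was above its median by 0.11, *Smad3* by 0.19 and *Nrros* by 0.51. The part of gene length in these differences was not tested.

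**Figure D4:**
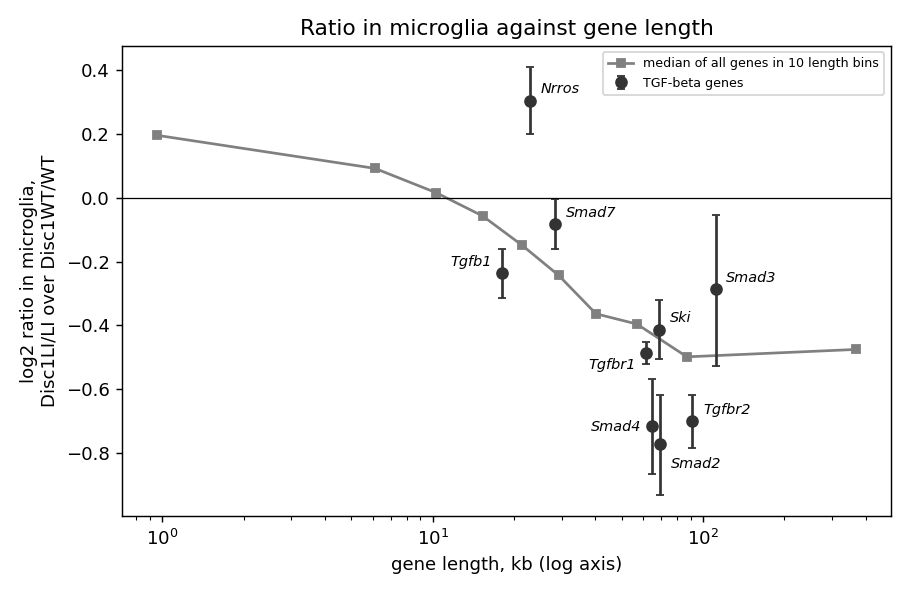
Log2 ratio of Disc1LI/LI over Disc1WT/WT microglia (vertical) against gene length in kb (horizontal, log axis) for the 9 genes, with 95% counting intervals. Grey squares are medians of measured genes above a minimum CPM in Disc1WT/WT microglia, in 10 bins of length, drawn at the geometric mean of each bin's limits. *Nrros* lies above the grey line at 0.31, and *Smad2*, *Smad4* and *Tgfbr2* lie below it.

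Within microglia the genes were also read in cells with lower and with higher marker levels. *Tgfbr1* was at 1241 CPM in Disc1WT/WT microglia with markers under 1% of UMIs and at 1510 in those at or over 1%, and at 911 and 1098 in the Disc1LI/LI library. *Smad2* hardly differed between them, at 81.1 and 81.5 in the Disc1WT/WT library and at 47.7 and 47.5 in the Disc1LI/LI library. The differences between genotypes were alike in both ranges: -0.77 and -0.78 for *Smad2*, -0.73 and -0.69 for *Smad4*, -0.79 and -0.63 for *Tgfbr2*, -0.45 and -0.46 for *Tgfbr1*, and 0.21 and 0.39 for *Nrros*. The class and both ranges were set by microglia marker genes, and whether those genes follow the pathway here was not tested. After thinning to 1000 UMIs a *Smad2* UMI was found in 8.10% (7.42 to 8.81) of Disc1WT/WT and 5.22% (4.28 to 6.31) of Disc1LI/LI microglia, and an *Nrros* UMI in 8.87% (8.17 to 9.61) and 12.5% (11.0 to 14.0).

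In neutrophils, 8 of the 9 genes were lower past the fold in the Disc1LI/LI library and *Nrros* was higher, beside 43.9% of 11477 genes downward and 10.3% upward. These 11477 include 1161 genes at the limit of a count of 0, which could not be called. The Disc1WT/WT values rest on 116 cells and carry 15.2% to 21.2% of the microglial level of microglia genes, against 2.83% to 4.96% in the Disc1LI/LI library. *Tgfbr1*, at 48.7 against 291 CPM (log2 ratio -2.58, -2.80 to -2.35), was inside that range in both libraries, in the Disc1LI/LI library through *Csf1r* alone. *Smad4* was at 47.5 against 77.9 (-0.71, -1.12 to -0.28) and *Smad2* at 25.8 against 60.0 (-1.22, -1.68 to -0.72), both above it. Genes of like length had medians of -0.72 and -0.74 there. *Nrros* was at 0.53 with an interval from -0.18 to 1.34, which includes 0, on 16 UMIs in the Disc1WT/WT neutrophils.

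In the other cells, 5 genes were lower past the fold and *Nrros* was higher, beside 44.7% of 13217 genes downward and 15.5% upward. The log2 ratio was -2.92 (-3.04 to -2.80) for *Tgfbr1*, -2.63 (-2.83 to -2.44) for *Tgfbr2* and 0.54 (0.39 to 0.70) for *Nrros*. This class held mostly classical monocytes in the Disc1LI/LI library and border macrophages with unclaimed cells in the Disc1WT/WT library, so genotype and cell makeup cannot be told apart in it. Within the border macrophage gate *Nrros* was at 169.6 against 212 CPM and *Tgfbr2* at 136 against 201, and both pairs of intervals overlapped, whereas *Tgfbr1*, at 136 (90.2 to 196) against 358 (319 to 401), did not overlap. In the classical monocyte gate neither *Tgfbr1*, at 29.1 against 94.2, nor *Tgfbr2*, at 15.8 against 38.6, overlapped between the libraries. The microglia rule genes, which the class rule caps in the other cells, were also lower in these Disc1LI/LI gates. They were at 11.99% against 19.2% of the microglial level in border macrophages and 1.71% against 5.42% in classical monocytes. The part of microglial RNA in the receptor values was not tested.

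**Figure D5:**
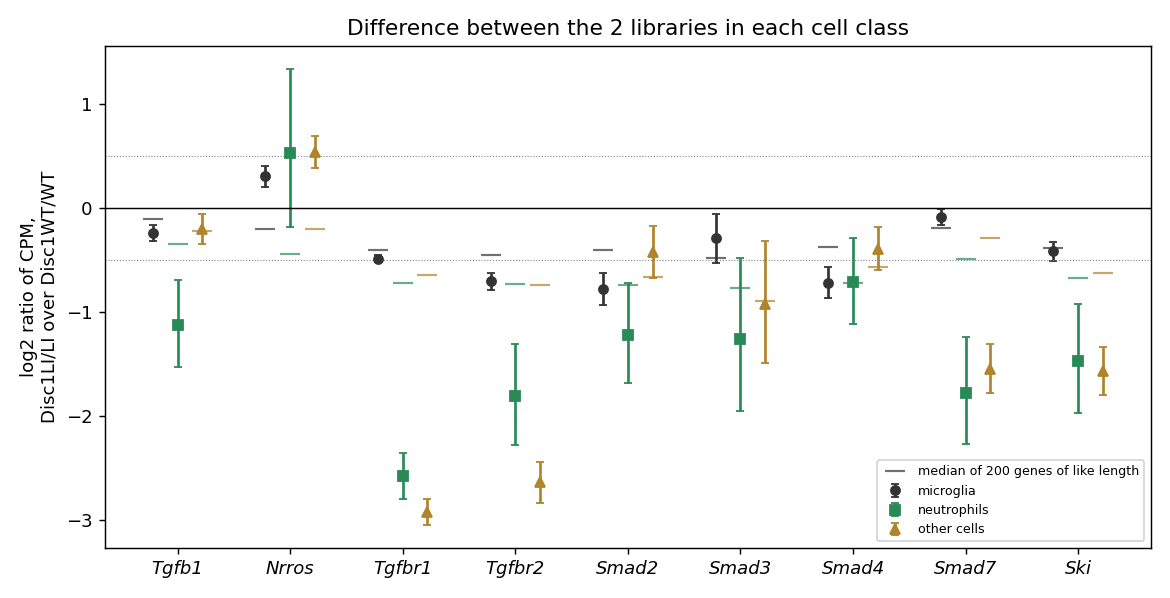
Log2 ratio of CPM, Disc1LI/LI over Disc1WT/WT, for each gene in microglia (circles), neutrophils (squares) and other cells (triangles), with 95% counting intervals. Short horizontal marks are the median of the 200 genes nearest in length in the same class, and dotted lines mark 0.5 and -0.5. *Nrros* is the one gene above 0 in all 3 classes, and *Tgfbr1* lies lowest in neutrophils and other cells, at -2.58 and -2.92.

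A list of 71 further genes was read in the same way, by role. It holds genes of the pathway and its relatives, and 7 microglia genes that are not components of it. Of 55 with at least 10 UMIs, 27 were at least 2-fold higher in Disc1WT/WT microglia than in neutrophils and 4 lower, and of 54 in the Disc1LI/LI library 36 were higher and 5 lower. Over all measured genes 41.6% and 58.5% were higher to that degree and 10.0% and 13.9% lower, and the higher ones of the list include 7 microglia genes that mark the class. With TMM scaling these counts were 19 and 7, and 25 and 13, with no share of all genes computed on that scale. The other ligands were all but absent from microglia: *Tgfb2* had 3 UMIs and 1 UMI, and *Tgfb3* 2 UMIs and 1 UMI. *Lrrc32*, whose product anchors latent TGF-beta on regulatory T cells, had 0 UMIs in the microglia of both libraries. *Itgb8*, a subunit of an integrin that activates TGF-beta, had 3 UMIs and 0 UMIs in microglia, a level at or under the 3 counts taken as the limit of a count of 0. Its partner *Itgav* was at 117 and 85.7 CPM in microglia, against 37.5 and 9.45 in neutrophils. *Itgb5* stood at 762 and 840.0 in microglia against 139 and 31.6 in neutrophils. *Ltbp3*, whose product binds latent TGF-beta in the matrix, had 14 and 4 UMIs in microglia.

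*Thbs1*, whose product can free the ligand, had the reverse pattern, at 2.99 and 11.0 CPM in microglia against 751 and 873 in neutrophils. The co-receptor *Eng* was at 57.9 and 44.9 in microglia against 13.5 and 1.67 in neutrophils, and *Tgfbr3*, the other co-receptor, had 6 UMIs and 0 UMIs in microglia. *Skil*, the relative of *Ski*, was at 385 and 243 against 148 and 56.5. *Pmepa1*, an inhibitor that the pathway itself induces, was at 1044 and 992 in microglia against 189 and 32.0 in neutrophils. *Smad1*, a transducer of the bone morphogenetic protein branch, was at 76.1 against 7.49 CPM in the Disc1WT/WT library (log2 ratio 3.34, 2.12 to 4.97). Of the transcription factor *Sall1* and the matrix gene *Sparc*, both known as microglia genes, the first was at 227 against 8.02 and the second at 4599 against 160 in the Disc1LI/LI library. The genes listed as targets went the other way in part. *Tgfbi* was at 21.5 and 18.6 in microglia against 65.9 and 55.1 in neutrophils, and *Id1* at 2.57 against 84.8 in the Disc1LI/LI library. Whether the listed targets, the *Id* genes among them, follow TGF-beta in these cells was not tested. The 9 microglia genes used as background stood in neutrophils at 15.2% to 21.2% and 2.83% to 4.96% of their microglial level. Neutrophil values of the wider list were not set beside that range, and the part of microglial RNA in them was not tested.

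Against the other cells, 20 of 61 genes of the list were higher and 18 lower in Disc1WT/WT microglia, and 28 of 59 higher and 10 lower in Disc1LI/LI microglia. The shares over all genes were 15.7% higher and 17.9% lower, and 28.7% and 19.9%. Among the lower ones were 7 of 8 and 5 of 7 measured target genes. *Tgfbi* was at 155 and 174 CPM in the other cells, *Cdkn1a* at 128 and 132 against 23.8 and 33.9 in microglia, and *Id2* at 157 and 147 against 54.1 and 67.4. *Dab2*, an adaptor known in macrophages, was at 332 in the Disc1WT/WT other cells against 34.9 in microglia. All 7 microglia genes of the list were higher in microglia in both libraries, but these genes mark the class, so that is a check of it.

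Between the genotypes in microglia, 6 of 55 genes of the list were higher past a log2 ratio of 0.5 and 18 lower, beside 7.64% and 25.5% of all genes, and their median was -0.31 against -0.18. With TMM scaling they were 7 and 8, again without a share of all genes on that scale. The lower ones were spread over 9 of 14 regulators, 4 of 6 nuclear partners, 2 of 9 receptors and 1 gene each of the activation, Smad and microglia groups. Genes of this list were not set beside genes of like length, and the part of length in their ratios was not tested. *Usp9x*, a deubiquitinase of SMAD4, was at 69.0 against 130.3 CPM (log2 ratio -0.92, -1.05 to -0.79), the integrin gene *Itgb1* at 226 against 424 (-0.91, -0.98 to -0.84) and the type II receptor *Bmpr2* at 78.3 against 144 (-0.87, -0.996 to -0.754). *Skil* was at -0.66 (-0.73 to -0.59) and *Smad1* at -0.68 (-0.84 to -0.52). Among listed genes with at least 50 CPM in either sum the highest were inside the fold, and *Id2* was at 0.32 (0.17 to 0.46), *Slc2a5* at 0.29, *Sparc* at 0.24 and *Itgb5* at 0.14. *Itgav* was at -0.45 (-0.57 to -0.33) and *Eng* at -0.37 (-0.53 to -0.20).

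Of the 6 higher genes 4 were among the 7 measured target genes, of which none was lower: *Id1*, *Id3*, *Cdkn1a* and *Cdkn2b*. The other two were *Thbs1* and the ligand gene *Gdf15*, and these genes are named after their values were seen. *Cdkn1a*, a cell cycle inhibitor, was at 33.9 against 23.8 CPM (0.51, 0.31 to 0.71) and *Id1* at 2.57 against 0.851 on 21 and 25 UMIs, while the intervals of *Id3* and *Cdkn2b* included 0. *Id1* in Disc1LI/LI microglia was at 3.03% of its neutrophil level and *Thbs1* at 1.26%, against 1.96% and 0.399% in Disc1WT/WT microglia. The neutrophil genes in Disc1LI/LI microglia were at 1.58% for *Mmp9*, 1.17% for *Cxcr2*, 0.902% for *Lcn2* and 0.222% for *S100a8*. In Disc1WT/WT microglia they were at 0.0331%, 0.0377%, 0.0226% and 0.0121%. The class rule itself caps *S100a8* and *S100a9* in microglia. The part of neutrophil RNA in these microglial values was not tested.

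Finally, the genes most like each of the 9 in level were sought among 5354 genes, over 13 sums of at least 50 cells that came from both libraries. The measure was Pearson's r of log2(CPM + 10), a description over sums that share libraries, depth and free RNA, with no test. *Tgfbr1* was most like *Dst* (r = 0.988), *Cttnbp2nl* and *Arhgap5*, and *Ski* most like *Dock4* (0.991), *Tmcc3* and *Cttnbp2nl*. *Tgfbr2* was most like *Abca1* (0.986), *Rnase4* and *Marf1*. Among the 9 genes themselves, *Ski* and *Tgfbr1* had r = 0.981, *Tgfbr1* and *Tgfbr2* 0.942, and *Smad7* and *Tgfbr1* 0.817. *Nrros* was at -0.03 with *Tgfbr1* and -0.27 with *Smad7*, at 0.357 with *Smad2* and at 0.610 with *Tgfb1*, near the 0.592 of *Tgfb1* with *Tgfbr1*. Its closest genes were *Apip* (0.897), *Erp29* and *Mrpl48*. *Smad7* was closest to *Tmem106b* (0.956), *Rab6b* and *Camk2n1*, and *Tgfb1* to *Yipf5* (0.970), *Vcp* and *Cops4*. *Smad2* was closest to *Exoc5* (0.932), *Aggf1* and *Rab1a*, *Smad3* to *Apbb1ip* (0.919), *N4bp1* and *Cab39*, and *Smad4* to *Plek* (0.908), *Stat6* and *Med13*.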

How the data were processed

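Brains of 23-week-old male littermates, 6 per genotype, were pooled, dissociated with actinomycin D, sorted as CD45lowCD11b+ cells and run as 1 droplet library (10x Genomics 3′ chemistry) per genotype. The labels name more than 1 version of the kit and chip without saying which library used which, so kit and genotype cannot be told apart. The deposited files hold raw UMI counts per gene and barcode, which the authors made with Cell Ranger 6.1.2 (STAR, mm10). Seurat 3.0.1 is named in the submitters' processing notes and not reflected in these counts. The filter behind the study's smaller set of analysed cells is not given in the sources used here.

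Barcodes under 200 genes or over 10% of UMIs from mitochondrial genes were left out, and no doublet caller was run. Counts were summed per library and class, scaled to a class total of 1000000 UMIs (CPM) and given exact Poisson, Clopper-Pearson (ratios) or exact binomial (shares) intervals at 95%. A count of 0 was given a limit of 3 counts. Genes that could not be called at that limit stayed in the number of measured genes and were left out of the medians. Genes with at least 10 UMIs over both sums were measured. A gene was past the fold at a log2 ratio of 1 between classes or 0.5 between genotypes. With 1 library per genotype no test was run. Cells were thinned to 1000 UMIs to compare shares. Scaling by trimmed mean of M-values used edgeR 4.0.16 (R 4.3.3), and the rest Python 3.11.15 with numpy 2.4.6, scipy 1.17.1 and pandas 2.3.3. The ratio and its interval were tested on simulated data. Positions came from GENCODE vM21 and promoters from RefSeq (GRCm38.p6).

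The 9 genes, the gene lists and the marker sets were chosen with earlier results of these data known. A few genes of these lists are not reported here and enter no count over a list. Beyond the 9 genes, the 4 highest and 4 lowest ratios per comparison were sought among listed genes with at least 50 CPM in either sum. The text names some of these and not all. It names none for the comparisons of genotypes in neutrophils and in the other cells. It also names 9 genes whatever their value (*Tgfb2*, *Tgfb3*, *Tgfbr3*, *Eng*, *Skil*, *Ltbp3*, *Lrrc32*, *Itgb8* and *Itgav*), and the 3 genes most correlated with each of the 9. The 6 listed genes past the fold upward between genotypes in microglia, all under 50 CPM there, and the neutrophil genes beside them were named after their values were seen. Alternatives varied the cell filter, class cuts, scaling, averaging, thinning, the cells of most UMIs, the gate rule and the UMI filter. Those that left out neutrophils over the microglia cut, neutrophils with many granule genes or cells without a gate were chosen after seeing the data.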

Additional observations from a re-analysis of the deposited data

How the results depend on the processing

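No paired analysis was possible because each genotype was 1 library and no result came from a test. Of the counts that answer a comparison 160 values stayed within 1.5 times the main one and 16 did not. The remaining values were mostly those of single genes, with some shares of all genes past the fold. Of these, 432 stayed and 162 moved, beyond the counting interval for a gene or beyond 1.5 times for a share. A further 8 values of single genes, whose interval lay to one side of 0, turned direction. Turns of values whose interval included 0 are not among the 8: with TMM scaling *Smad2*, *Smad3* and *Smad4* in Disc1WT/WT microglia over neutrophils went to -0.48, -0.90 and -0.75. With TMM scaling *Smad2*, *Smad3* and *Smad4* in Disc1LI/LI microglia over neutrophils turned to -0.42, -0.32 and -1.14, which put 1 of the 9 genes past the fold downward (0 without it), and *Smad7* between genotypes in microglia turned to 0.094. *Smad4* in Disc1LI/LI microglia over neutrophils was also at -0.34 with totals that left out mitochondrial, hemoglobin, S100 and *Malat1* UMIs, at -0.21 as a mean over cells and at -0.089 after thinning. With TMM the wider list had 7 and 13 genes lower in microglia than in neutrophils (4 and 5 without it). It had 8 lower between genotypes in microglia (18), and 8 higher and 23 lower in neutrophils (4 and 35). In neutrophils 51 genes of the list were measured, and without TMM 10.3% of all genes were higher and 43.9% lower. All 7 microglia genes of the list were among the 35 lower ones, and the part of microglial RNA in these counts was not tested. No share of all genes past the fold was computed with TMM or after thinning. With a microglia cut of 1%, which moves microglia into the other cells, 0 of the 9 genes were higher than in the other cells in the Disc1WT/WT library (5 at the cut of 0.5%) and *Nrros* was at 0.055. Thinning gave 9 listed genes lower than in the other cells of the Disc1WT/WT library (18 without it), 3 higher between genotypes in microglia (6), 1 of the 9 genes higher there (*Nrros*, 0.51), and 5 lower in neutrophils (8). *Nrros*, the 1 gene higher in neutrophils, left 0 past the fold under a neutrophil cut of 6%, as a mean over cells, after thinning and without the 5% of cells with most UMIs. With at least 4 markers per gate, 7 of the 9 genes were higher in border macrophages than in classical monocytes of the Disc1LI/LI library (4 at 3 markers). At 3 markers that border macrophage gate held 44 cells, with 1 to 35 UMIs per gene. The share of all genes higher in it was not computed, so these counts are no result about the 9 genes. Beyond the construction of each alternative, the cause was not tested. Depth limits the Disc1WT/WT neutrophil values, which rest on 116 cells and 16 to 194 UMIs per gene.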
